A study of Mus musculus with 4 samples.

Results

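The genes described here are 53 mouse genes that act when a dividing cell copies its DNA and separates the copies. They were chosen by name, 28 for S phase and 25 for mitosis, from the 54532 gene rows of the deposited count table. All 53 passed the filter on low counts and were among the 14316 genes tested. RNA was sequenced in 4 libraries of T helper 2 (Th2) cells, the CD4+ T cells that make interleukin-4, interleukin-5 and interleukin-13. Cells of 2 libraries had been grown with HU-308, a synthetic compound selective for cannabinoid receptor 2 (CB2), and cells of the other 2 with the solvent DMSO. All were wild-type cells that the labels place in the bleomycin-induced model of systemic sclerosis (SSc), a disease of fibrosis in skin and lung. In both groups naive CD4+ T cells were polarised in culture, stimulated again on day 4 through CD3 and CD28, and collected 12 h after that. No library came from cells without Cnr2, the gene of CB2, so effects through CB2 and other effects of HU-308 cannot be told apart. The dose of HU-308 and the age of the mice are not given in the sources used here. The labels also do not say whether libraries 1 and 2 of a group came from different mice or cultures, so the spread that p-values rest on here may be technical.

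A naive T cell rests outside the cell cycle and begins to divide when its antigen receptor and CD28 are engaged. Cyclins D and E with their kinases then release E2F transcription factors. These switch on the genes for licensing replication origins, for the MCM helicase, for the enzymes of the replication fork and for making deoxynucleotides. Genes of mitosis follow later in the cycle, when the B-MYB and FOXM1 factors act on promoters that carry a CHR element and CCAAT boxes, and cyclin B with CDK1 drives the cell into division. In bulk RNA, fewer cells in a phase and less RNA per cell cannot be told apart.

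None of the 53 genes passed an adjusted p under 0.05 between HU-308 and DMSO (edgeR quasi-likelihood test, Benjamini-Hochberg over all tested genes), beside 0.314% of all genes tested, 0.0838% higher and 0.231% lower with HU-308. The smallest adjusted p-values by edgeR among the 53 were 0.106 for Cdc25b and 0.112 for E2f2. At an unadjusted p under 0.05, edgeR placed 6 of the 53 higher with HU-308, beside 8.79% of all tested genes. It placed 0 of the 53 lower at that level, beside 9.97% of all tested genes. DESeq2 called 2 of the 53, E2f2 and Cdc25b, both higher with HU-308, beside 1.92% of the genes it tested called higher and 3.81% called lower. The same pair was called in the authors' deposited table, beside 1.06% of its genes higher and 2.07% lower, and limma-voom called 0 of the 53, beside 0.356% of all tested genes. A block for the replicate number, which no label says pairs the libraries, called 28 of the 53, all higher, beside 16.7% of all tested genes higher and 17.1% lower. By contrast, the 2 libraries of a group differed from each other over most of the 53 genes. Library 2 stood below library 1 for all 28 S phase genes in both groups. In both groups that difference was larger than the difference between treatments for 23 of the 28.

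**Figure D1:**
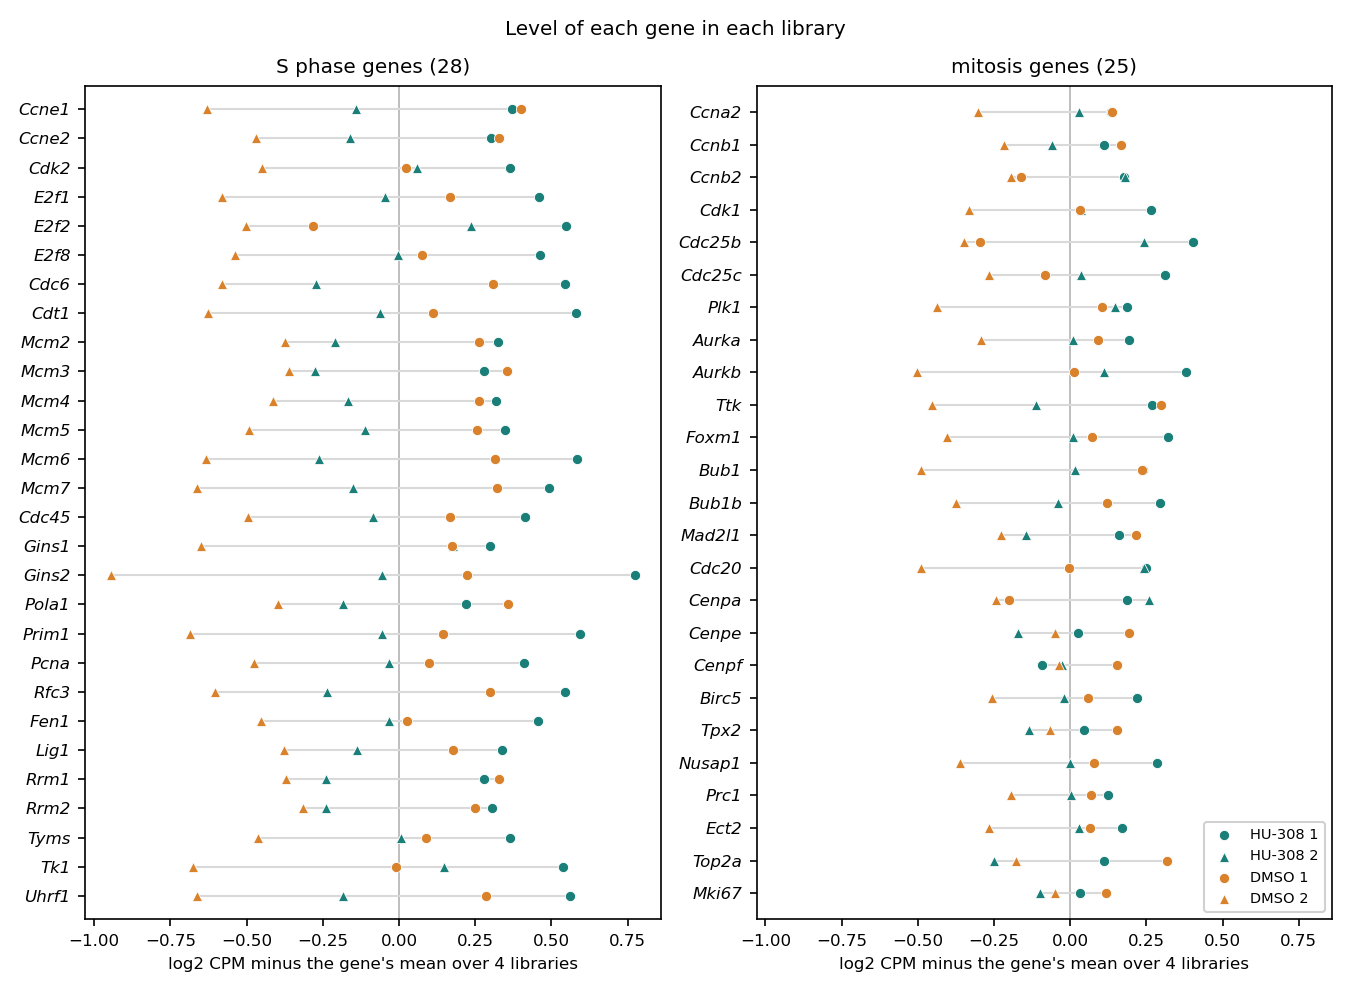
Level of each of the 53 genes in each library, as log2 CPM (TMM-scaled) minus the gene's mean over the 4 libraries, for 28 S phase genes (left) and 25 mitosis genes (right). Circles are library 1 and triangles library 2 of each group, HU-308 in green and DMSO in orange. DMSO library 2 is lowest for all 28 S phase genes, and HU-308 library 1 is highest for 23 of them.

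The 4 libraries were of like depth. The HU-308 libraries held 16145298 and 16263077 counts, against 18041457 and 20479254 in the DMSO libraries. Each library detected 20525 to 21319 genes. Of 9 T cell and Th2 genes, the T cell genes Cd3e, Cd3d, Cd3g, Cd4 and Trac stood between 141 and 576 CPM in every library, where CPM is the read count brought to a common library size with TMM factors. All 5 were higher in library 2 than in library 1 of both groups, opposite to the S phase genes, as for Cd3d with 219.8 and 304 CPM in HU-308 libraries 1 and 2, against 141 and 204 CPM in DMSO libraries 1 and 2. The 4 Th2 genes had lower values in both HU-308 libraries than in both DMSO libraries. Gata3, the Th2 master factor, stood at 385 and 302 CPM with HU-308, against 493 and 486 CPM with DMSO. Il4 stood at 10.9 and 9.71 CPM with HU-308, against 26.4 and 27.8 CPM with DMSO. Il13 stood at 2.44 and 1.48 CPM with HU-308, against 20.5 and 30.1 CPM with DMSO, and Il5 at 1.13 and 0.948 CPM, against 10.9 and 13.2 CPM. Of 7 myeloid and dendritic cell markers, Lyz2 was at 0 in all 4 libraries and Csf1r was at or near 0. The summed level of these 7 was 31.1 and 63.6 CPM in HU-308 libraries 1 and 2, against 42.5 and 78.7 CPM in DMSO libraries 1 and 2, and most of it came from Adgre1. It was thus higher in library 2 of both groups. Mitochondrial transcripts took 1.70% and 1.37% of counts with HU-308, against 2.25% and 1.75% with DMSO, and were lower in library 2 of both groups. B cell markers summed to 83.2 and 67.5 CPM with HU-308, against 39.8 and 35.3 CPM with DMSO, and most of that came from Ighm. The 3 NK cell markers were at or near 0 in every library. The 4 stroma and epithelium markers summed to 267 and 267 CPM with HU-308, against 289 and 286 CPM with DMSO, and most of that came from Pecam1. The 2 CD8 T cell markers summed to 13.8 and 12.1 CPM with HU-308, against 12.5 and 13.7 CPM with DMSO. The 5 erythroid markers summed to at most 2.14 CPM in any library. The part of these markers in the differences described below was not tested.

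The 28 S phase genes together took 0.688% of all counts in HU-308 library 1 and 0.470% in HU-308 library 2, against 0.558% in DMSO library 1 and 0.342% in DMSO library 2. The 95% Wilson interval of the first of these values, which covers counting error only, was 0.684% to 0.692%. Both libraries numbered 2 were therefore below both libraries numbered 1. The 25 mitosis genes took 0.861% and 0.751% of counts with HU-308, against 0.801% and 0.639% with DMSO, in the same order of libraries but closer together. All these shares are of raw counts, without the TMM factors of 1.04 in each HU-308 library and of 0.962 and 0.958 in the DMSO libraries. With those factors DMSO library 1 would stand above HU-308 library 1 for the mitosis genes, while the S phase order would stay. The ratio of mitosis to S phase reads was 1.25 and 1.60 in HU-308 libraries 1 and 2, against 1.44 and 1.87 in DMSO libraries 1 and 2. It was higher in library 2 of both groups and did not separate HU-308 from DMSO.

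Within groups, the median difference between libraries was larger over S phase genes than over mitosis genes. Library 2 was below library 1 for 28 of 28 S phase genes in the HU-308 group, with a median log2 difference of -0.50 and a range of -0.84 to -0.12. In the DMSO group it was also below for 28 of 28, with a median of -0.73 and a range of -1.16 to -0.22. Among all tested genes the medians were 0.0074 in the HU-308 group and -2.9e-05 in the DMSO group, and 49.1% and 50% of genes were lower in library 2. For mitosis genes, library 2 was below library 1 for 22 of 25 with HU-308 (median -0.18, range -0.38 to 0.07) and for 25 of 25 with DMSO (median -0.38, range -0.75 to -0.03). Both groups had library 2 lower for all 28 S phase genes and for 22 mitosis genes, beside 35% of all tested genes. A drop of at least 0.5 on the log2 scale was seen in 14 S phase genes and 0 mitosis genes with HU-308, beside 10.9% of all genes, and in 25 S phase genes and 4 mitosis genes with DMSO, beside 13.4%. In an exact binomial test of the reads of a group's 2 libraries, which compares those libraries and not the conditions, library 2 was lower for 27 S phase genes and 20 mitosis genes with HU-308, beside 20.5% of all genes. The same test called 28 and 21 with DMSO, beside 25.4% of all genes. The difference lay further from 0 in the DMSO group than in the HU-308 group for 26 of 28 S phase genes and 22 of 25 mitosis genes.

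**Figure D2:**
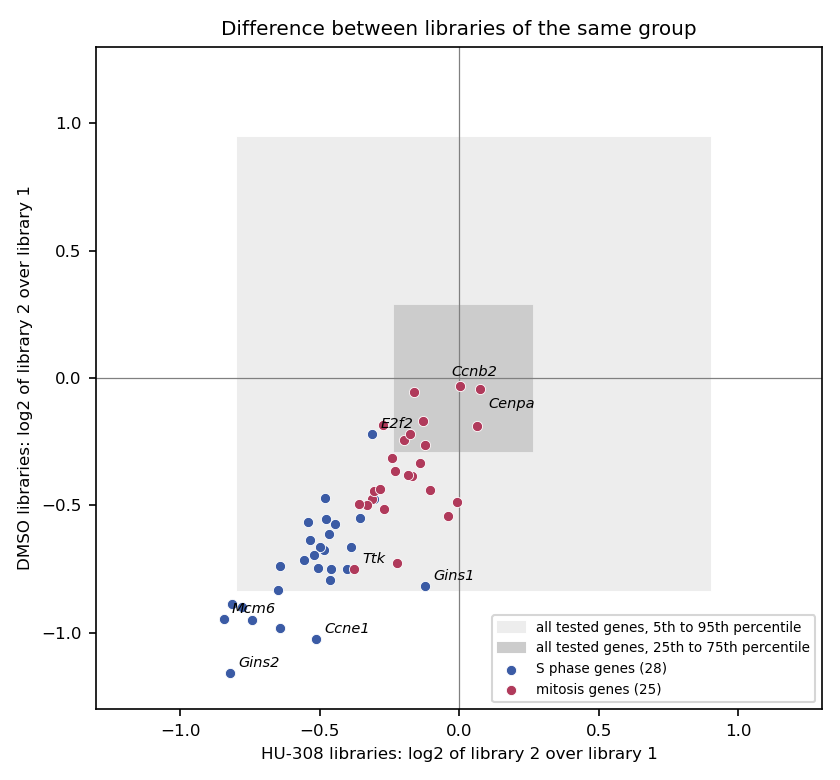
Log2 ratio of library 2 over library 1 in the HU-308 group (horizontal) and in the DMSO group (vertical) for each of the 28 S phase genes (blue) and 25 mitosis genes (red). Grey areas hold the middle 50% and 90% of all tested genes on each axis. All 28 S phase genes lie below 0 on both axes, while Ccnb2 and Cenpa lie near 0 on both.

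Among S phase genes the largest library differences were in Mcm6, Gins2 and Cdc6 with HU-308 and in Gins2, Ccne1 and Mcm7 with DMSO. Mcm6, a subunit of the MCM helicase that unwinds DNA at the fork, stood at 600.1 and 334 CPM in HU-308 libraries 1 and 2, against 498 and 258 CPM in DMSO libraries 1 and 2. Library 1 was thus 1.80-fold above library 2 with HU-308 and 1.93-fold above it with DMSO, whereas the fitted ratio of HU-308 over DMSO was 1.24-fold. Cdc6, which loads the helicase onto origins, stood at 134 and 76.4 CPM with HU-308, against 114 and 61.7 CPM with DMSO. Mcm7, another subunit of the helicase, stood at 342 and 219 CPM with HU-308, against 304 and 154 CPM with DMSO. For all 3 genes the libraries numbered 1 were the high ones and the ranges of HU-308 and DMSO overlapped. Ccne1, which encodes cyclin E1, the activator of CDK2 at S phase entry, stood at 60.8 and 42.6 CPM with HU-308, against 61.9 and 30.3 CPM with DMSO, so that its highest value was in DMSO library 1. Its log2 fold change was 0.17 ± 0.36 (SE).

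The promoters of the 53 genes were examined for the elements named above, because S phase and mitosis genes differed between libraries by different medians. RefSeq promoter entries (GRCm38.p6) matched 44 of the 53 by symbol, and the 250 bases before each start were searched on both strands. The letters searched for E2F were TTGGCGC, also TTCCCGC, also TTGCCGC and also TTCGCGC. Those for the CHR were TTTGAA and also TTCGAA, and the CCAAT box was searched as CCAAT. The complement of CCAAT ends in TTGG and can share these letters with TTGGCGC. The sequences printed here are of 2 S phase promoters with large library differences, Cdc6 (chr11:98907901-98908150, plus strand) and the first listed entry of Uhrf1 (chr17:56303087-56303336, plus strand), and 3 mitosis promoters. The mitosis promoters are those of Ccnb2 (chr9:70421555-70421804, minus strand), Cdc20 (chr4:118437344-118437593, minus strand) and Top2a (chr11:99024190-99024439, minus strand). Ccnb2 and Cdc20 were among the genes with the smallest unadjusted p by edgeR, and Top2a had the lowest log2 fold change. All 3 hold CHR and CCAAT matches, as 8 of the 20 mitosis genes with a promoter do. Cdc25b and Cenpa had smaller unadjusted p-values by edgeR, and their promoters, not printed, held CCAAT boxes but no CHR match. Each printed sequence is written 5′ to 3′ towards the RefSeq start, and capitals mark the matched letters on either strand. Distances below are counted from that start. The deposited coordinates of Cdc6 begin at 98907801, so its whole window lies inside the gene as given there. The windows of Uhrf1 and Cdc20 also reach into the deposited gene at their ends.
Cdc6: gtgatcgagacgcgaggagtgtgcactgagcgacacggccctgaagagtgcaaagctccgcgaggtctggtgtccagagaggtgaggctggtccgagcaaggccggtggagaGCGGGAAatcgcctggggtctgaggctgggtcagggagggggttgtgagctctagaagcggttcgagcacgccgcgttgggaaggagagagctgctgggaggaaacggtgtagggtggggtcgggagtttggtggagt
Uhrf1: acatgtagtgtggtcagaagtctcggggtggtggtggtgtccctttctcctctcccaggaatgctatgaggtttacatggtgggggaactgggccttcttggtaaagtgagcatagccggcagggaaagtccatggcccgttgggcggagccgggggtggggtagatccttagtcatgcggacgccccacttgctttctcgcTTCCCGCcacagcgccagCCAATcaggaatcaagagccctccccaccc
Ccnb2: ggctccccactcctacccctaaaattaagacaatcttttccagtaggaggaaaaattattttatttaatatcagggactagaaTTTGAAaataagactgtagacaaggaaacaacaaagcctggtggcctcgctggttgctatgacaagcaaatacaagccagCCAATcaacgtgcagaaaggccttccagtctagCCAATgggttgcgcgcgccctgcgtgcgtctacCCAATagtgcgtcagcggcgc
Cdc20: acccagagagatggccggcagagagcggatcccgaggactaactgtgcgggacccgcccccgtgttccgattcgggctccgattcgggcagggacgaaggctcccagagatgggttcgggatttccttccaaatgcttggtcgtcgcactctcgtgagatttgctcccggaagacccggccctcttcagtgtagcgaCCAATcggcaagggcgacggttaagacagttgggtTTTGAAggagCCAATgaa
Top2a: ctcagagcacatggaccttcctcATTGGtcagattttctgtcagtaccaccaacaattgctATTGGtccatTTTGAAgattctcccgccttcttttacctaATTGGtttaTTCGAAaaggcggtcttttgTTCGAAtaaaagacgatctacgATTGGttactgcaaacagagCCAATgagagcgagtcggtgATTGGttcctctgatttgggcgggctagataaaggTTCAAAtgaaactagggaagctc

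In these sequences the Cdc6 window held 1 E2F match and no CHR or CCAAT match. The first base of that match lay 138 bases before the RefSeq start, inside the gene in the deposited coordinates. The Uhrf1 promoter held an E2F match at 48 and a CCAAT box at 30 bases before the start. The Cdc20 promoter held a CHR at 18 and CCAAT boxes at 8 and 53 bases, the Ccnb2 promoter 3 CCAAT boxes at 21, 54 and 87 bases and a CHR at 167 bases, and the Top2a promoter 4 CHR matches and 6 CCAAT boxes. An E2F match was present in 13 of the 24 S phase genes with a promoter (54.2%) and in 4 of the 20 mitosis genes (20%), beside 9.01% of 27025 genes in the table. These are all genes with a promoter entry, not only the genes tested here, and no share over tested genes alone was computed. A CHR together with a CCAAT box was present in 6 S phase genes (25%) and 8 mitosis genes (40%), beside 7.93% of all genes. At least 2 CCAAT boxes were present in 7 S phase genes (29.2%) and 12 mitosis genes (60%), beside 11.5% of all genes. The shares also count windows that lie inside the deposited gene, as those of E2f1 and Mcm7 do. Of 52 promoter entries, 45 had bases after the start that lay in a GENCODE transcript of the gene. A match describes letters in this window and is not evidence of a bound factor. Ccnb2, Cdc20 and Top2a, which hold CHR and CCAAT matches, had log2 fold changes of 0.35, 0.47 and -0.15.

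Between treatments, the S phase genes had a median log2 fold change of 0.31, HU-308 over DMSO, with a range of -0.01 (Mcm3) to 0.79 (E2f2), beside 0.02 over all tested genes. The fold change was above 0 for 27 of 28, beside 52.1% of all tested genes. Both HU-308 libraries were above both DMSO libraries for 4 of the 28, namely Cdk2, E2f2, Gins1 and Tk1, beside 25.9% of all genes, and both were below for 0, beside 25.4%. The share of non-overlapping S phase genes, 14.3%, was thus below that of all genes. The treatment difference was smaller than the library difference of both groups for 23 of the 28, beside 33% of all tested genes, and larger than both for E2f2 alone, beside 41%. The sign of the S phase median depended on single libraries: it was -0.05 without HU-308 library 1 and -0.05 without DMSO library 2, and 0.57 without HU-308 library 2 and 0.71 without DMSO library 1. Compared library by library, the median over S phase genes was 0.25 for HU-308 library 1 over DMSO library 1, 0.43 for HU-308 library 2 over DMSO library 2, 0.93 for HU-308 library 1 over DMSO library 2 and -0.34 for HU-308 library 2 over DMSO library 1.

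**Figure D3:**
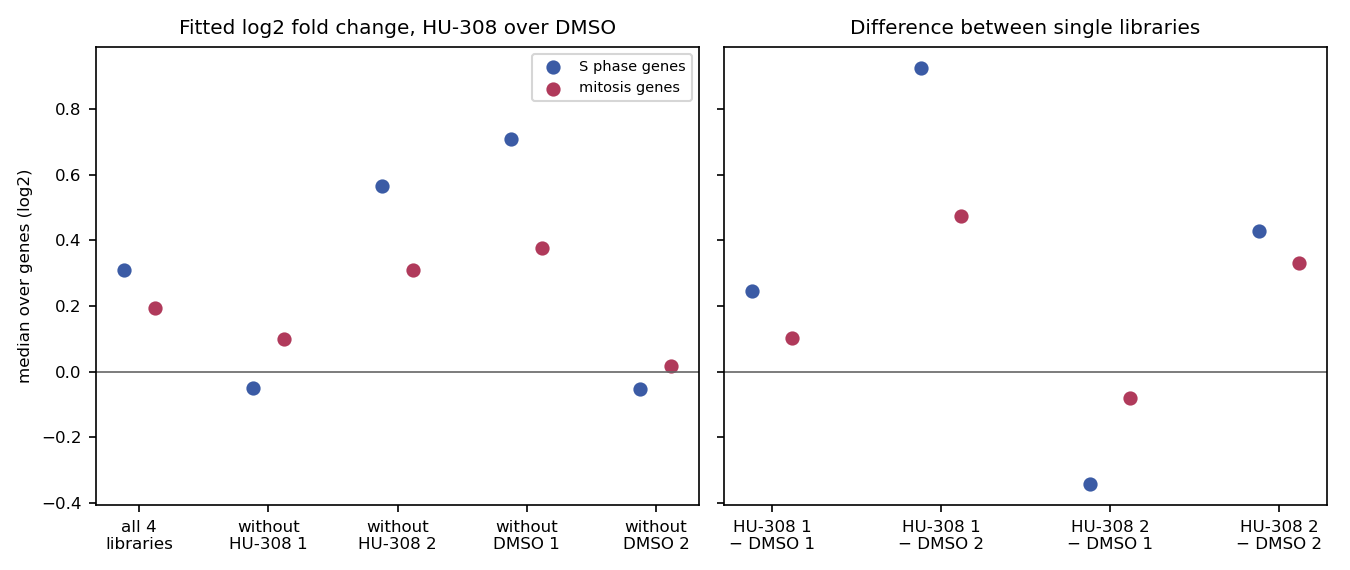
Median log2 difference over the 28 S phase genes (blue) and 25 mitosis genes (red). Left, the fitted log2 fold change of HU-308 over DMSO with all 4 libraries and with each library left out. Right, the difference between each HU-308 library and each DMSO library. The S phase median is -0.34 between HU-308 library 2 and DMSO library 1 and 0.93 between HU-308 library 1 and DMSO library 2.

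E2F factors head the S phase programme, and E2f2, an activating member of the family, had the highest fold change of all 53 genes. E2f2 (chr4:136172394-136196057, plus strand, GRCm38) stood at 347 and 279 CPM with HU-308, against 195 and 168 CPM with DMSO. Both HU-308 libraries were above both DMSO libraries, and library 2 was the lower one in each group. The log2 fold change was 0.79 ± 0.17 (SE), or 1.72-fold, with an adjusted p of 0.112 by edgeR, 0.0136 by DESeq2 and 0.0134 in the authors' deposited table. E2f1, also an activator, averaged 62.4 ± 15.3 CPM with HU-308 and 47.6 ± 17.1 CPM with DMSO (SD, n = 2 each), and E2f8, a repressor that curbs E2F targets later in S phase, averaged 115 ± 25.9 and 84.0 ± 24.9 CPM. For both, HU-308 library 2 lay below DMSO library 1, so the groups overlapped. E2f3, another activator, which is not among the 53, stood at 50.1 and 44.0 CPM with HU-308, against 68.9 and 53.0 CPM with DMSO, with both HU-308 libraries below both DMSO libraries. Its log2 fold change was -0.37 ± 0.18 (SE; adjusted p = 0.327 by edgeR).

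Of the G1/S cyclins and their kinase, Cdk2 stood at 162 and 131 CPM with HU-308, against 128 and 91.9 CPM with DMSO. Its lowest HU-308 value was just above its highest DMSO value, and its log2 fold change was 0.42 ± 0.21 (SE; adjusted p = 0.342 by edgeR). Ccne2, the second cyclin E gene, averaged 42.6 ± 9.61 CPM with HU-308 and 39.5 ± 15.1 CPM with DMSO, and shares 17.4% of its exon bases with Ints8 on the other strand.

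Origins are licensed when Cdc6 and Cdt1 load the MCM helicase. Cdt1 stood at 174 and 111 CPM with HU-308, against 125 and 75.1 CPM with DMSO, and its log2 fold change was 0.51 ± 0.31 (SE; adjusted p = 0.434 by edgeR). Library 1 was the high one in both groups, and the groups overlapped. The 6 helicase subunits Mcm2 to Mcm7 had a median log2 fold change of 0.17, from -0.01 for Mcm3 to 0.30 for Mcm6, and none had groups that did not overlap. Mcm4, the subunit with the highest level per length, stood at 422 and 301 CPM with HU-308, against 405 and 254 CPM with DMSO, a log2 fold change of 0.13 ± 0.27 (SE). Library 1 was again the high one in both groups, and the groups overlapped. Mcm3 averaged 349.5 ± 93.9 CPM with HU-308 and 353 ± 121 CPM with DMSO, and the sign of its fold change turned to above 0 when libraries were scaled by size only.

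Cdc45 and the GINS complex turn the loaded MCM ring into an active helicase. Cdc45 stood at 82.0 and 58.0 CPM with HU-308, against 69.2 and 43.7 CPM with DMSO, and the log2 fold change was 0.31 ± 0.28 (SE). Gins2 stood at 28.7 and 16.2 CPM with HU-308, against 19.6 and 8.73 CPM with DMSO, and the log2 fold change was 0.67 ± 0.45 (SE; adjusted p = 0.467 by edgeR). Gins2 had the second highest fold change of the 53 and also the largest library difference, and its groups overlapped. It shares 67.3% of its exon bases with Gse1 on the opposite strand, and since no source used here says that strand was used in counting, its reads are uncertain. Gins1 stood at 20.3 and 18.7 CPM with HU-308, against 18.6 and 10.5 CPM with DMSO, so that the lower HU-308 value and the higher DMSO value were nearly equal and DMSO library 2 was the low one.

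At the fork, primase starts each new strand, and the clamp PCNA holds the polymerases on DNA. Prim1, the catalytic primase subunit, stood at 94.6 and 60.3 CPM with HU-308, against 69.3 and 38.9 CPM with DMSO. Pcna stood at 463 and 340.3 CPM with HU-308, against 372 and 250.2 CPM with DMSO. In both genes the libraries stood in the same order, with HU-308 library 1 highest, DMSO library 2 lowest and the others between. The log2 fold changes were 0.52 ± 0.34 for Prim1 and 0.37 ± 0.25 for Pcna (SE), with adjusted p-values of 0.450 and 0.466 by edgeR. Rfc3, a subunit of the clamp loader, and Lig1, the ligase that joins Okazaki fragments, had log2 fold changes of 0.29 ± 0.38 and 0.19 ± 0.25 (SE). Pola1, the catalytic subunit of polymerase alpha, averaged 78.4 ± 15.4 CPM with HU-308 and 78.2 ± 28.2 CPM with DMSO, a log2 fold change of 0.0050 whose sign turned under RLE scaling. Fen1, the flap endonuclease, was the lowest of the 53 per length at a mean of 3.26 FPKM (the deposited level per length), and 84.2% of its exon bases are shared with genes on the opposite strand, Gm10143 and Tmem258.

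Deoxynucleotides are made by ribonucleotide reductase and thymidylate synthase and salvaged by thymidine kinase. Tk1, the thymidine kinase, stood at 105 and 80.2 CPM with HU-308, against 71.9 and 45.3 CPM with DMSO, and both HU-308 libraries were above both DMSO libraries. Its log2 fold change was 0.66 ± 0.26 (SE), with an unadjusted p of 0.0456 and an adjusted p of 0.256 by edgeR. Rrm2, the small subunit of the reductase, stood at 496 and 340.4 CPM with HU-308, against 477 and 323 CPM with DMSO, a log2 fold change of 0.06 ± 0.26 (SE). The Rrm2 values were thus high in both libraries numbered 1 and low in both libraries numbered 2. Rrm1, the large subunit, had a log2 fold change of 0.02 ± 0.28 and Tyms one of 0.36 ± 0.23 (SE). Uhrf1, which carries DNA methylation over to the new strand, stood at 434 and 259 CPM with HU-308, against 359 and 186 CPM with DMSO, and its log2 fold change was 0.35 ± 0.37 (SE). Its library 1 values exceeded its library 2 values 1.67-fold with HU-308 and 1.93-fold with DMSO.

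**Figure D4:**
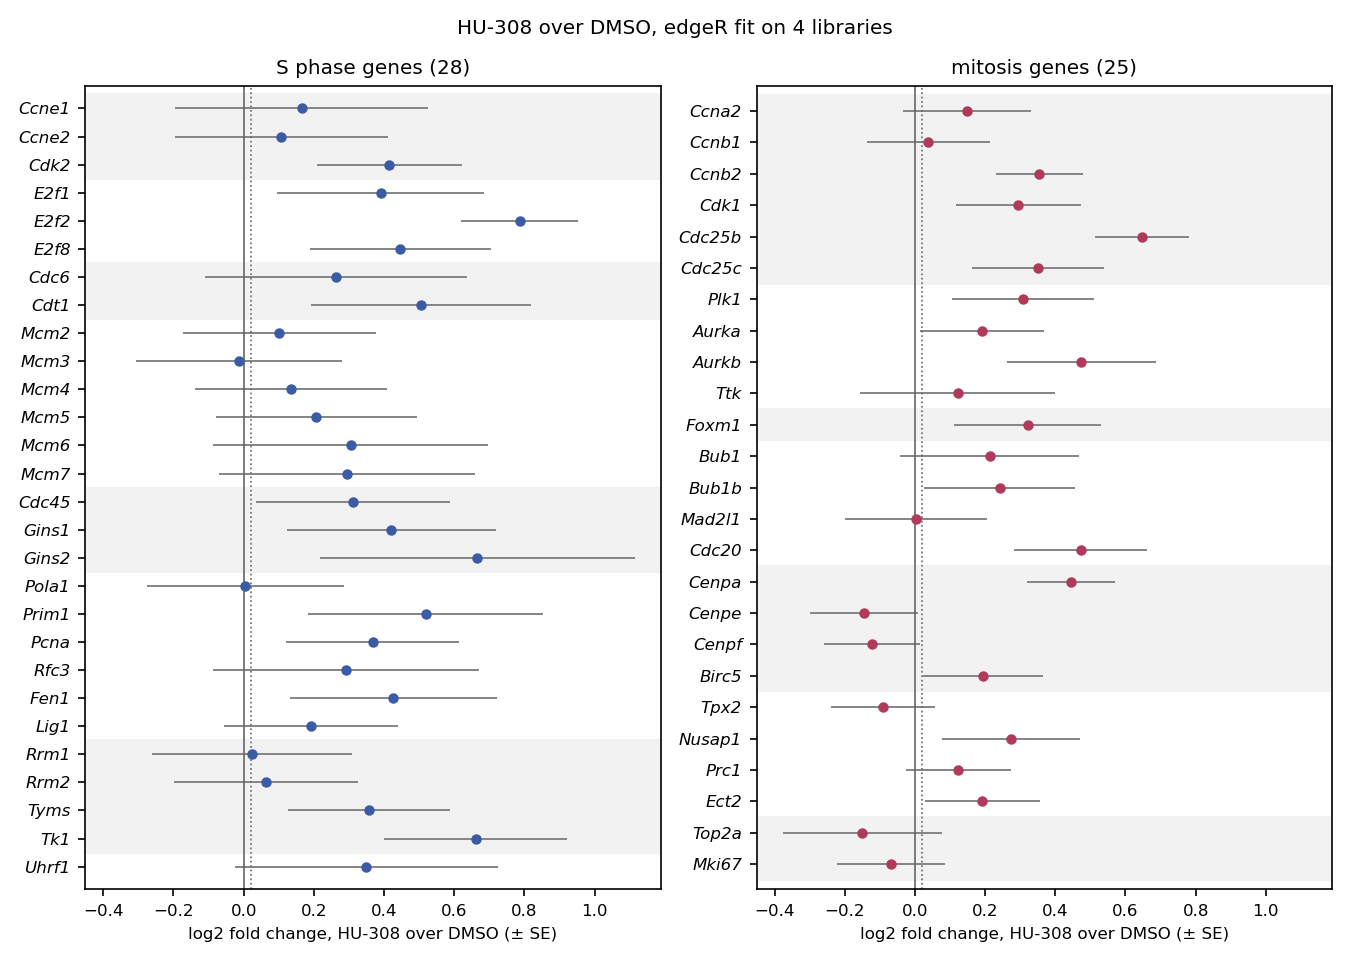
Log2 fold change of HU-308 over DMSO from the edgeR fit on 4 libraries, with SE, for 28 S phase genes (left) and 25 mitosis genes (right), shaded by role. The solid line is 0 and the dotted line the median of all tested genes, 0.02. E2f2 at 0.79 and Cdc25b at 0.65 are the highest in their panels, and no gene passed an adjusted p under 0.05.

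The mitosis genes had a median log2 fold change of 0.19, HU-308 over DMSO, with a range of -0.15 (Top2a) to 0.65 (Cdc25b). It was above 0 for 20 of 25, beside 52.1% of all tested genes. Both HU-308 libraries were above both DMSO libraries for 8 of the 25 (32%), namely Ccnb2, Cdk1, Cdc25b, Cdc25c, Plk1, Aurkb, Cdc20 and Cenpa, and below for 0. That share is near the 25.9% of all tested genes. The treatment difference was larger than the library difference of both groups for 4 genes, Ccnb2, Cdc25b, Cdc25c and Cenpa, beside 41% of all tested genes. It was smaller than both for 11 of the 25, beside 33%. The median stayed above 0 with any library left out, at 0.10 without HU-308 library 1, 0.31 without HU-308 library 2, 0.38 without DMSO library 1 and 0.02 without DMSO library 2. The last of these is near the median of 0.02 over all tested genes in the fit on 4 libraries. Between single libraries the mitosis median was 0.10 for HU-308 library 1 over DMSO library 1, 0.33 for HU-308 library 2 over DMSO library 2, 0.47 for HU-308 library 1 over DMSO library 2 and -0.08 for HU-308 library 2 over DMSO library 1.

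Entry into mitosis is set by cyclin B with CDK1 and by the CDC25 phosphatases that remove the block on that kinase. Cdc25b (chr2:131186949-131198497, plus strand, GRCm38) stood at 382 and 341 CPM with HU-308, against 235 and 226 CPM with DMSO. Both HU-308 libraries were well above both DMSO libraries, and the libraries within a group lay close together. The log2 fold change was 0.65 ± 0.13 (SE), or 1.57-fold, with an adjusted p of 0.106 by edgeR, 0.0373 by DESeq2 and 0.0367 in the authors' deposited table. Ccnb2, which encodes cyclin B2 (chr9:70407692-70421547, minus strand), stood at 162 and 163 CPM with HU-308, against 129 and 126 CPM with DMSO. Its libraries were almost alike within each group and did not overlap between groups. The log2 fold change was 0.35 ± 0.12 (SE), with an unadjusted p of 0.0305 and an adjusted p of 0.221 by edgeR. Reads of the pseudogene Ccnb2-ps came to 1.76% of those of Ccnb2, so the splitting of reads between the 2 copies could touch a small part of this count. Ccnb1, which encodes cyclin B1, averaged 229 ± 19.1 CPM with HU-308 and 223 ± 41.8 CPM with DMSO, a log2 fold change of 0.04 ± 0.17 (SE). Cdk1 averaged 142 ± 16.0 CPM with HU-308 and 116 ± 20.6 CPM with DMSO, and Cdc25c 23.4 ± 3.15 and 18.3 ± 1.66 CPM (SD, n = 2 each). Cdc25a, another gene of these phosphatases, belongs to the other mitosis genes described below and went the opposite way to Cdc25b and Cdc25c. Cdc25a stood at 92.8 and 73.3 CPM with HU-308, against 127 and 107 CPM with DMSO. Both HU-308 libraries were below both DMSO libraries, and its log2 fold change was -0.50 ± 0.18 (SE; adjusted p = 0.225 by edgeR). Ccna2, whose cyclin A2 serves both S phase and mitosis, had a log2 fold change of 0.15 ± 0.18 (SE).

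Among the mitotic kinases, Aurkb, the kinase of the chromosomal passenger complex, stood at 161 and 134 CPM with HU-308, against 125 and 87.5 CPM with DMSO. Its groups did not overlap, and its log2 fold change was 0.47 ± 0.21 (SE; adjusted p = 0.296 by edgeR). Plk1, which drives centrosome maturation and mitotic entry, stood at 122 and 119 CPM with HU-308, against 116 and 79.3 CPM with DMSO. DMSO library 2 was the low one, and the other 3 libraries lay close together. Aurka, the spindle pole kinase, and Ttk, the checkpoint kinase also called MPS1, had log2 fold changes of 0.19 ± 0.18 and 0.12 ± 0.28 (SE). Foxm1, the forkhead factor of the mitotic programme, stood at 202 and 163 CPM with HU-308, against 170.0 and 122 CPM with DMSO, and its groups overlapped.

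The spindle checkpoint holds back the activator CDC20 until every chromosome is attached. Cdc20 (chr4:118432901-118437352, minus strand) stood at 160.0 and 159 CPM with HU-308, against 134 and 95.9 CPM with DMSO. The HU-308 libraries were nearly equal and above both DMSO libraries, of which library 2 was the low one. Its log2 fold change was 0.47 ± 0.19 (SE), with an unadjusted p of 0.0483 and an adjusted p of 0.263 by edgeR. The checkpoint genes Bub1, Bub1b and Mad2l1 had log2 fold changes of 0.21 ± 0.26, 0.24 ± 0.21 and 0.0034 ± 0.20 (SE), and the last turned below 0 under RLE scaling.

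At the centromere, Cenpa, the histone H3 variant that marks it (chr5:30666777-30674830, plus strand), stood at 233 and 245 CPM with HU-308, against 178 and 173 CPM with DMSO. Both HU-308 values were above both DMSO values, and neither group differed by library number as S phase genes did. The log2 fold change was 0.45 ± 0.13 (SE), with an unadjusted p of 0.0131 and an adjusted p of 0.162 by edgeR. Cenpe, a kinetochore motor, stood at 253 and 220.4 CPM with HU-308, against 284 and 239.9 CPM with DMSO. Cenpf, a large kinetochore protein, stood at 243 and 254 CPM with HU-308, against 288 and 252 CPM with DMSO. The log2 fold changes were -0.15 ± 0.15 for Cenpe and -0.12 ± 0.14 for Cenpf (SE), with overlapping groups in each. Birc5, which encodes survivin, a partner of Aurora B, stood at 142 and 120.1 CPM with HU-308, against 127 and 102 CPM with DMSO, and its log2 fold change was 0.19 ± 0.17 (SE).

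For the spindle and cytokinesis, Nusap1, a protein that bundles microtubules, stood at 201 and 165 CPM with HU-308, against 174 and 128 CPM with DMSO. Tpx2, the activator of Aurora A on the spindle, stood at 248 and 219 CPM with HU-308, against 267 and 229.8 CPM with DMSO. Library 2 was the low one in each group for both genes, and their log2 fold changes were 0.27 ± 0.20 and -0.09 ± 0.15 (SE). The Tpx2 value turned above 0 when libraries were scaled by size only. Prc1 and Ect2, which act on the midzone and the cleavage furrow, had log2 fold changes of 0.12 ± 0.15 and 0.19 ± 0.16 (SE).

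Top2a, the topoisomerase that untangles sister chromosomes, and Mki67, which coats mitotic chromosomes and is the usual marker of proliferation, had the highest levels of the 53 per length, at a mean of 191 and 216 FPKM. Top2a stood at 1847 and 1440.0 CPM with HU-308, against 2134 and 1513 CPM with DMSO. Mki67 stood at 2228 and 2034 CPM with HU-308, against 2366 and 2105 CPM with DMSO. The groups overlapped in both genes, with library 2 the low one in each group. Their log2 fold changes were -0.15 ± 0.23 for Top2a and -0.07 ± 0.15 for Mki67 (SE), and the adjusted p-values were 0.755 and 0.844 by edgeR. The value of Mki67 turned above 0 when libraries were scaled by size only. The next highest of the 53 per length were Pcna and Rrm2, both at a mean of 147 FPKM, and their 4 library values ranged over more than the distance between these means.

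Among the mitosis genes the fold change went with the length of the gene. Spearman's rho between log2 fold change and deposited gene length was -0.67 across the 25 mitosis genes, -0.11 across the 28 S phase genes and -0.11 across 14306 tested genes. With the GC content of the transcripts it was 0.60, 0.40 and 0.28. These are descriptions across genes, which share the same 4 libraries and are not independent replicates. Of the 5 mitosis genes with a fold change below 0, Cenpf (15433 bases), Mki67 (10061), Top2a (9013) and Cenpe (8620) were the longest of the group, and Tpx2 has 4677 bases. With an offset for length and GC in each library, a setting chosen after the data were seen, Cenpf stood at 0.06, Mki67 at 0.0052, Top2a at -0.01 and Cenpe at -0.0032, while Cdc25b stood at 0.54 (adjusted p = 0.164) and E2f2 at 0.62 (adjusted p = 0.181) in the edgeR fit. An offset of this kind is made to take out trends with length and GC, so a shift of long genes towards 0 can follow from the method itself. The part of length in the fold changes was not tested. The library differences did not go with length, with rho between -0.09 and 0.11 in the mitosis genes.

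**Figure D5:**
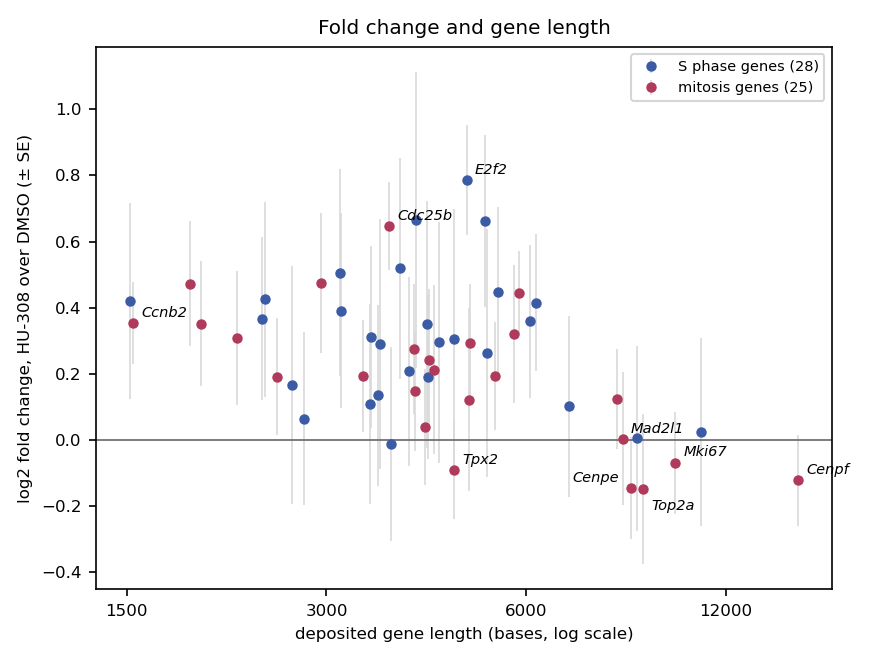
Log2 fold change of HU-308 over DMSO with SE against the deposited gene length (log axis) for 28 S phase genes (blue) and 25 mitosis genes (red). Cenpe, Top2a, Mki67 and Cenpf, the 4 longest mitosis genes, lie below 0, and Ccnb2 with 1531 bases lies at 0.35.

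Genes of the same pathways outside the 53 were read from the same fit. Among all tested genes, 52.1% had a fold change above 0 and 0.314% passed an adjusted p under 0.05 by edgeR. Of 42 other replication genes, none passed an adjusted p under 0.05 by edgeR, 34 had a fold change above 0, and the median was 0.27. Library 2 was lower for 40 of them with HU-308 (median -0.40) and for 42 with DMSO (median -0.67). The largest values were in Pola2, a subunit of polymerase alpha (0.66), Asf1b, a histone chaperone (0.65), and Pole2, a subunit of polymerase epsilon (0.62). Of the origin recognition genes, Orc1, Orc2, Orc3 and Orc4 had log2 fold changes below 0, at -0.42, -0.61, -0.27 and -0.25. Orc5 and Orc6 stood above 0, at 0.35 and 0.12. Of 52 other mitosis genes, none passed, 46 were above 0, and the median was 0.20, with library medians of -0.19 with HU-308 and -0.37 with DMSO. The largest were Pkmyt1, an inhibitory kinase of CDK1 (0.74), Pttg1, which encodes securin (0.67), and Spc24, a kinetochore subunit (0.56). Of 18 genes of the fork checkpoint and repair, none passed, and the median was 0.18, with library medians of -0.53 with HU-308 and -0.71 with DMSO. Among its largest values were those of the checkpoint kinases Chek2 (0.74) and Atr (-0.50). Of 16 other E2F, pocket protein and DREAM genes, none passed, and the median was 0.02, the same as over all genes. Tfdp2, a dimer partner of E2F factors, had the largest value (0.91). Replication-dependent histone genes are poorly measured here, since 24 of 69 passed the filter, and the median of those was 0.41. Library 2 was lower for 14 of the 24 in each group, beside 49.1% of all tested genes with HU-308 and 50% with DMSO. It was lower in both groups for 10, beside 35%. The library medians of the 24 were -0.11 with HU-308 and -0.39 with DMSO.

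The regulators that lie before S phase showed other values. Of 8 G1 cyclins and kinases none passed, 3 had a fold change above 0, and the median log2 fold change was -0.23. Ccnd2, which encodes cyclin D2, stood at 346 and 489 CPM with HU-308, against 740.0 and 971 CPM with DMSO. Cdk6, its kinase, stood at 796 and 607 CPM with HU-308, against 1277 and 1516 CPM with DMSO. Both HU-308 libraries were below both DMSO libraries in each gene, and the log2 fold changes were -1.03 ± 0.23 and -0.99 ± 0.19 (SE), with adjusted p-values of 0.117 and 0.0959 by edgeR. As for the other lists, the next one was written with earlier results of these data known, so its counts are descriptions only. Of 14 genes that slow or stop the cell cycle, 12 had a fold change above 0, beside 52.1% of all tested genes. Their median was 0.44, and 1 passed, beside 0.314% of all tested genes. That gene was Ccng2, an atypical cyclin that is high in cells leaving the cycle, which stood at 119.7 and 143 CPM with HU-308, against 48.5 and 53.5 CPM with DMSO. Ccng2 rose by a log2 fold change of 1.37 ± 0.16 (SE; adjusted p = 0.0495 by edgeR). Its adjusted p ranged up to 0.112 over 14 alternative settings, and 7 of them did not call it, among them the fits without HU-308 library 2 (0.0733) and without DMSO library 1 (0.0512). Klf2, a factor of T cell quiescence, and Btg2, an antiproliferative gene, had log2 fold changes of 1.80 ± 0.34 and 1.43 ± 0.25 (SE) and did not pass, with adjusted p-values of 0.0933 and 0.0861 by edgeR. Cdkn1a and Cdkn2b of the same list were below 0, and Cdkn2b reached at most 0.715 CPM in any library. Among the genes above 0, Cdkn1c reached at most 2.94 CPM and Cdkn2a at most 1.18 CPM. Cdkn1a stood at 108 and 135 CPM with HU-308, against 156 and 166 CPM with DMSO, and its groups did not overlap. Its log2 fold change was -0.41 ± 0.16 (SE; adjusted p = 0.250 by edgeR).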

How the data were processed

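RNA of Th2 cells was measured in 4 libraries, 2 with HU-308 and 2 with DMSO. Per the labels' protocols, TRIzol was used for extraction and a SMARTER mRNA kit for library preparation. Bowtie2 2.3.4.3, RSEM 1.3.1, DESeq2 1.4.5 and GRCm38 (mm10) are named in the submitters' processing notes without a role; annotation release and strand setting are not given in the sources used here. The counts are whole, unscaled numbers for each gene and library, as the file headers and the deposited values show. For FPKM, the authors divided by a deposited gene length. The signal columns are the authors' group means of scaled counts and were not used. The log2 fold change and p-value columns are the authors' deposited comparison, for 23290 genes with an adjusted p.

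The count test was edgeR 4.0.16 in R 4.3.3 (filterByExpr with a minimum count of 10 and total of 15, TMM, quasi-likelihood F test, 2 residual degrees of freedom, Benjamini-Hochberg over 14316 genes at 0.05). The SE is the absolute log2 fold change over the square root of F. The common biological coefficient of variation was 19.8%. Depth was 16145298 to 20479254 counts per library. Library differences are log2 ratios of TMM-scaled CPM with a prior count of 2, and an exact binomial test compared the reads of a group's libraries. Alternatives were RLE and library-size scaling, other filters, DESeq2 1.42.0, limma-voom, limma 3.58.1 on log2 FPKM (pseudocount 1 or 0.1), a replicate block, leaving out each library and, added after the data were seen, offsets for length and GC (mgcv 1.9.3). The edgeR step was tested on simulated data.

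The members and lists were chosen with earlier results of these data known, so no list was tested, and lists are described by counts and medians beside all tested genes. All members may be named. Values per library are given for members past the threshold, for the member of each role with the largest absolute fold change or the highest mean FPKM, for the 3 largest and 3 smallest fold changes and for the 3 largest library differences of each group. Gins1 was given its library values besides, after they were seen. In the same way, Orc1 to Orc6, Cdc25a, Ccnd1, Ccnd3, Cdk4, Cdkn1a, Cdkn1c, Cdkn2a and Cdkn2b of the other lists were named. Of the other lists, genes past the threshold and up to 3 with the largest absolute fold change and a mean log2 CPM of at least 2 are named, and 1 such gene is not reported here. Exon overlaps were read from GENCODE, whose coordinates were identical for 52 of the 53, and 18 of the 53 share exon bases with another gene. Promoters are from RefSeq (GRCm38.p6). Mcm4, Ccna2, Gins1, Foxm1, Tpx2, Ccne2, Aurkb, Gins2 and Cdc25c were not searched.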

Additional observations from a re-analysis of the deposited data

How the results depend on the processing

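The median library differences kept their direction under each alternative run for them (other scaling, a prior count of 0.5, log2 FPKM, and length and GC offsets), at -0.52 to -0.50 with HU-308 and -0.73 to -0.69 with DMSO over S phase genes, and -0.21 to -0.18 and -0.39 to -0.37 over mitosis genes. The number of all genes called by edgeR was 45. It was 20 with library size only (60.0% of calls lower, against 73.3%), a scaling that moved the median of all genes by 0.118, 561 without a filter, 28 with at least 1 CPM in 2 libraries, 727 with DESeq2, 0 with limma on log2 FPKM at either pseudocount, 23 with length and GC offsets (65.2% lower), and 37 to 337 with 1 library left out. A fit without 1 library leaves the lone sample to vary like the other group. The count for S phase genes and for mitosis genes was 0 each, and 1 each without a filter and with DESeq2; the cause was not tested.

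With a replicate block for the number in the titles, 4839 genes were called, among them 17 S phase and 11 mitosis genes, all higher with HU-308. Deviations of same-numbered libraries correlated at 0.465 over 14316 genes, but no label pairs them, and 2 pairs cannot show that the numbers do.

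The S phase median ranged over -0.051 to 0.71 with 1 library left out, and was below 0 without HU-308 replicate 1 or DMSO replicate 2. With 1 library left out, log2 fold changes that changed sign ranged over -0.26 to 0.75 for Ccne1, -0.24 to 0.54 for Ccne2, -0.20 to 0.76 for Cdc6, -0.19 to 0.44 for Mcm2, -0.32 to 0.37 for Mcm3, -0.16 to 0.49 for Mcm4, -0.12 to 0.61 for Mcm5, -0.18 to 0.84 for Mcm6, -0.11 to 0.85 for Mcm7, -0.32 to 0.41 for Pola1, -0.15 to 0.79 for Rfc3, -0.064 to 0.48 for Lig1, -0.28 to 0.40 for Rrm1, -0.23 to 0.36 for Rrm2, -0.068 to 0.88 for Uhrf1, -0.053 to 0.37 for Ccna2, -0.14 to 0.22 for Ccnb1, -0.20 to 0.53 for Ttk, -0.10 to 0.60 for Bub1, -0.20 to 0.22 for Mad2l1, -0.19 to 0.0040 for Tpx2, -0.00033 to 0.24 for Prc1 and -0.37 to 0.10 for Top2a. Signs also changed for Mcm3 (0.11 with library size only, 0.0046 with limma-voom, 0.0041 with the replicate block), Pola1 (-0.00099 with RLE, -0.0013 with DESeq2), Mad2l1 (-0.0029 and -0.0030), Tpx2 (0.027 with library size only) and Mki67 (0.049), and, with length and GC offsets, for Cenpf (0.058) and Mki67 (0.0052). The lowest count of any member in a library was 111 reads (Fen1), and with 2 libraries a group the number of libraries limits precision.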
